A study of Homo sapiens with 32 samples.

Results

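Gene expression was compared between 6 acute myeloid leukaemia (AML) cell lines that carry a fusion of the KMT2A gene and 15 non-erythroid AML lines without such a fusion, out of 32 lines measured in the series. The members were assigned by the line named in each sample title and not by an expression value. The lines to compare were chosen with earlier results of these data known. The KMT2A-fusion lines were ML-2, MOLM-13, MV4-11, NOMO-1, SHI-1 and THP-1. The other non-erythroid lines were GDM-1, HL-60, PLB-985, NB-4, SKM-1, KG-1, KG-1A, KASUMI-1, OCI-AML3, OCI-AML5, PL-21, ME-1, HNT-34, FKH-1 and SH-2. HL-60 was averaged with PLB-985 and KG-1 with KG-1A, as related lines, so the 15 arrays made 13 units. The remaining 11 lines of the series were in neither group, and 1 of them, EOL-1, was added to the fusion lines in an alternative.

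All lines were untreated cultures of established human leukaemia lines, and each was measured once, as total RNA made into biotin-labelled antisense RNA and hybridised to an Affymetrix array of 54675 probe sets. Of the fusion lines, the culture notes name RPMI medium with serum for ML-2, NOMO-1 and THP-1 and IMDM for SHI-1, and name no medium for MOLM-13 or MV4-11. Of the other lines, most were in RPMI, SH-2 was in IMDM, and the cultures of OCI-AML3 and OCI-AML5 received GM-CSF or SCF in alpha-MEM. The fusion status is not in the sample labels and was taken from general knowledge of these lines. With 1 array per line, every p-value measures the spread between lines, and precision is limited by how few arrays there are.

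KMT2A, also called MLL, encodes a histone methyltransferase that keeps HOX genes on in blood stem cells. Translocations join its amino-terminal part to one of many partner proteins, several of which belong to complexes that drive transcription elongation, and the fusions are known for high HOXA, MEIS1 and PBX3 expression and for a monocytic appearance. ML-2 and SHI-1 carry the fusion with AFDN, MOLM-13, NOMO-1 and THP-1 that with MLLT3, and MV4-11 that with AFF1. Each line is a single long-cultured clone from 1 patient with further mutations of its own, such as the FLT3 internal tandem duplication of MOLM-13 and MV4-11.

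Of 14212 genes tested, 16 were higher in the KMT2A-fusion lines and 1 was lower at an adjusted p under 0.05. The test was limma's moderated test with Benjamini-Hochberg adjustment over all tested genes. The higher genes made up 0.113% of those tested and the lower gene 0.00704%, together 0.12%. Leaving out 1 unit at a time, these counts ran from 5 higher genes (without NOMO-1) to 39 (without OCI-AML3), and from 0 to 7 lower genes. They were TRPM4, BEX1, GIPR, JMJD1C-AS1, MIR9-3HG, VAT1L, COL9A3, SNX24, MBNL1-AS1, RUBCNL, CPM, WHAMMP2, MS4A6A, HMX2, SPIB and MBNL1, and the lower gene was FHL3. Values below are log2 levels, log2(signal + 16), unless a difference is named, and a difference is the mean of the fusion lines minus the mean of the other units. The plot of these 17 genes by line shows how far the groups lay apart.

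**Figure D1:**
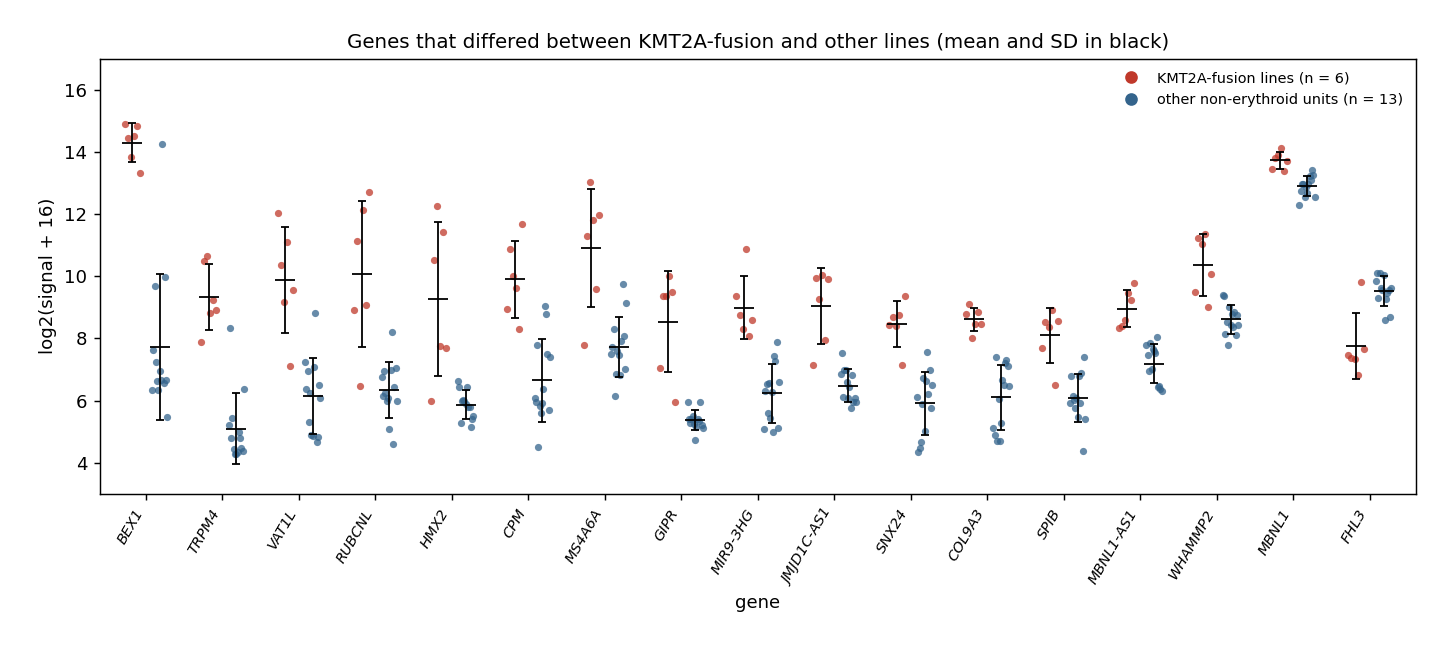
Log2(signal + 16) of the 17 genes that passed the test, with 1 point per KMT2A-fusion line (red, n = 6) and per other unit (blue, n = 13); black bars are the mean and SD. BEX1 averaged 14.30 in the fusion lines and 7.73 in the other units, and FHL3 is the gene whose fusion lines lie lower, with SHI-1 at 9.83 apart from them.

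The array of NOMO-1 had a median signal of 198.4, against 68.2 to 115.4 on the other 20 arrays compared, and its mean correlation with the other arrays was 0.731, against 0.849 to 0.883. On that array 5.99% of probe sets lay under a signal of 16, against 16.1% to 24.5% on the rest. The GAPDH ratio, the signal of the 3′ control probe set over that of the 5′ one, which rises where RNA or labelling is incomplete toward the 5′ end, was above 2 on 4 of 6 fusion arrays and on 3 of 15 other arrays. It was 5.97 in ML-2, 2.84 in NOMO-1, 2.61 in MOLM-13, 2.42 in THP-1, 1.24 in SHI-1 and 1.14 in MV4-11, against 7.08 in HL-60, 6.84 in NB-4 and 6.66 in GDM-1. The log2 ratio averaged 1.21 ± 0.876 in the fusion lines and 0.45 ± 1.10 in the other units (SD, n = 6 and 13), and an exact two-sided permutation test over 27132 splits gave p = 0.145. Without GDM-1 that p was 0.0459 and without NB-4 it was 0.0441.

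The 6 lines expressed leukocyte and myeloid markers, though not every marker in every line, and most other units did too. PTPRC (CD45) had log2 levels of 8.71 to 11.98 in the fusion lines and 9.71 to 13.53 in the other units, and was above the median of all probe sets, 6.73, in all of them. ANPEP was above that median in 4 of 6 fusion lines and 12 of 13 other units. The granule proteases ELANE, PRTN3, AZU1 and CTSG and the monocyte gene LYZ were above it in 6 of 6 fusion lines. In the other units they were above it in 9, 10, 11, 13 and 12 of 13. MPO was above it in 6 and 10, with group medians of 12.38 and 14.53. S100A9 was above it in 5 and 8, and FCGR1A in 1 and 0. CD14, the lipopolysaccharide co-receptor of mature monocytes, was above it in 1 of 6 fusion lines, NOMO-1 at 7.52, and in 2 of 13 other units. Of the 6 erythroid markers measured, KLF1 was above it in 0 of 6 fusion lines and 6 of 13 other units, HBD in 1 and 6, TAL1 in 2 and 8, GATA1 in 3 and 4, ALAS2 in 1 and 0 and EPOR in all 6 and all 13.

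KMT2A itself was read by 11 probe sets, and they did not move together. For the 3 probe sets 226981_at, 212080_at and 212076_at, the levels in ML-2 were 6.15, 4.78 and 6.40, against the lowest levels of 9.80, 9.40 and 8.76 on the 15 other arrays. MOLM-13 and NOMO-1 also lay below every other array on all 3 of them, at 9.20 and 9.48 on 226981_at. MV4-11, SHI-1 and THP-1, at 11.33, 11.00 and 10.09 on that probe set, lay inside the range of the other arrays. The probe sets 212078_s_at, 212079_s_at and 220546_at gave ML-2 levels of 9.16, 9.23 and 9.18, and on them no fusion line lay below all the other arrays. ML-2 thus stood far below the other arrays on 3 probe sets, among them on 212078_s_at and 220546_at, and above them on 212079_s_at, where the highest other array was at 9.12. Where along the transcript each probe set lies was not analysed here.

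Over the fusion lines as a group, 226981_at differed by -1.26 ± 0.52 (SE), 212080_at by -1.46 ± 0.61 and 212076_at by -0.98 ± 0.44, with unadjusted limma p of 0.0237, 0.0257 and 0.0378. For the gene, read through 226981_at, the adjusted p was 0.323, so KMT2A did not pass. The 3 lines that were low on these probe sets, ML-2, MOLM-13 and NOMO-1, all had GAPDH ratios above 2. On arrays with a ratio of 2 or less the KMT2A difference was 0.55, and on arrays above 2 it was -2.81. THP-1, the fusion line with a ratio of 2.42, read 10.09 on 226981_at, inside the range of the other arrays. Of the other lines, those with ratios above 2 read 11.62 in GDM-1, 11.34 in HL-60 and 11.65 in NB-4, in the upper part of that range. The part of array quality in the KMT2A levels was not tested.

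**Figure D2:**
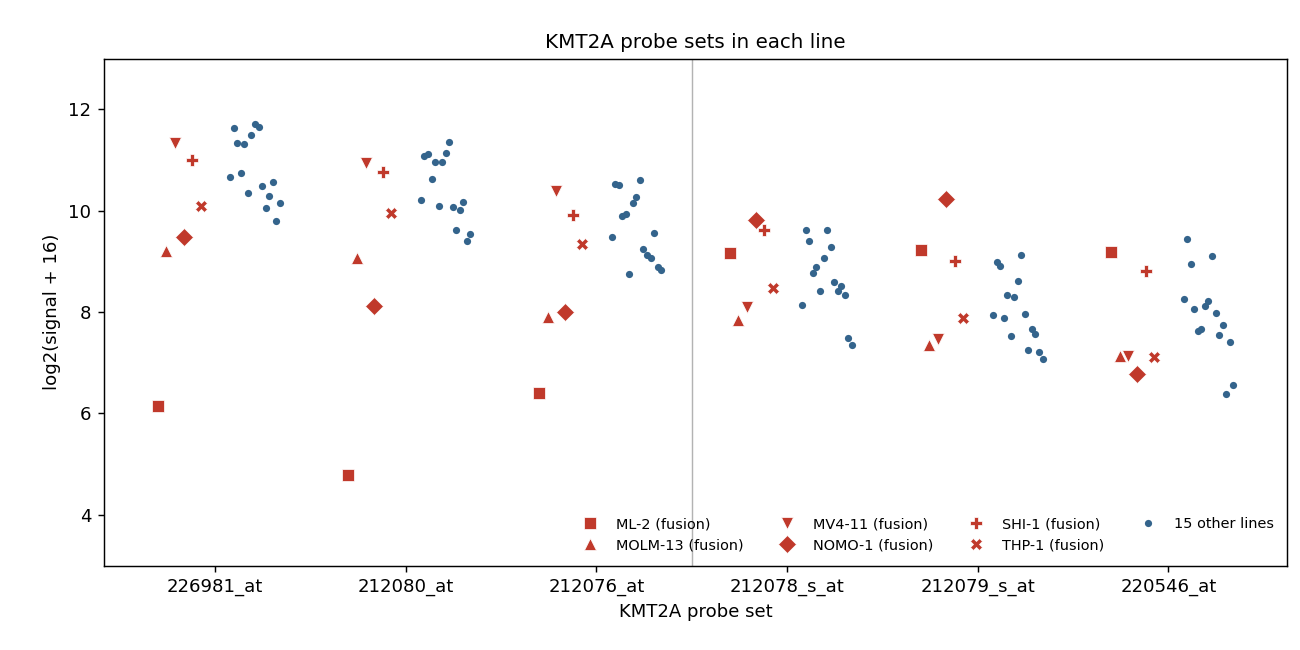
Log2(signal + 16) of the 6 KMT2A probe sets with the highest mean in the other lines, with each KMT2A-fusion line as a red symbol and the 15 other lines as blue points to the right. ML-2 is at 6.15, 4.78 and 6.40 on the 3 probe sets left of the line and at 9.16, 9.23 and 9.18 on the 3 to the right of it.

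The partner genes were also followed by probe set. MLLT3 (AF9), a subunit of the super elongation complex and the partner in 3 of the lines, had levels of 5.48 to 8.18 in the fusion lines and 5.97 to 10.74 in the other units on its main probe set. The difference was -1.57 ± 0.60 (adjusted limma p = 0.292), and the other 2 probe sets gave -1.26 and -1.56. MV4-11 was the lowest fusion line, at 5.48. The 3 lines with the MLLT3 fusion were at 7.79, 7.96 and 8.18, above ML-2 and SHI-1 at 6.73 and 7.35. On probe set 1569652_at they did overlap, with NOMO-1 at 7.28 and THP-1 at 7.22 against SHI-1 at 7.35.

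AFDN (afadin), an actin-binding junction protein, was above all 15 other arrays on probe set 229775_s_at in ML-2 at 7.24, SHI-1 at 7.13 and NOMO-1 at 8.25, against a highest other array of 6.21. On its brightest probe set, 224685_at, ML-2 and SHI-1 read 11.55 and 11.32 and NOMO-1 and MV4-11 read 10.49 and 10.41, while MOLM-13 and THP-1 read 6.75 and 7.05. The highest other array there was OCI-AML5 at 11.11, and the difference was 1.95 ± 1.03 with an adjusted p of 0.415. AFF1 (AF4) is a scaffold of the super elongation complex. On its brightest probe set, 201924_at, it lay at 12.96 to 13.25 in 5 fusion lines and at 10.91 in NOMO-1, against 11.41 to 12.95 in the other units. KG-1A alone, before averaging with KG-1, was at 13.36, above every fusion line. The AFF1 difference on it was 0.33 ± 0.29 (adjusted p = 0.63), and MV4-11, the line with the AFF1 fusion, was at 12.99 among the other fusion lines. The dimmer AFF1 probe sets, 211826_s_at and 215451_s_at, differed by 0.59 and 0.63, with unadjusted limma p of 0.0374 and 0.0458. On them NOMO-1 was the highest fusion line, at 8.16 and 8.59.

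Of 19 tested genes of the KMT2A complexes and fusion partners, 0 passed, 13 had a positive difference and their median was 0.11, beside 0.07 for all tested genes. At an unadjusted p under 0.05, 2 were higher and 3 lower, where 8.23% and 4.86% of all tested genes were. MLLT1 (ENL), a reader of acetylated histones and another fusion partner, had the smallest p, with 12.01 ± 0.40 in the fusion lines and 11.34 ± 0.33 in the other units (SD, n = 6 and 13; adjusted p = 0.187).

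The best known targets could be read only in part. Of the HOXA cluster, only HOXA2 was measured by a probe set with 1 gene name, and the other 10 members were not analysed here. HOXA2, a homeobox gene at one end of the cluster, averaged 5.72 ± 1.36 in the fusion lines and 5.84 ± 1.05 in the other units (difference -0.12 ± 0.54; adjusted p = 0.94). MEIS1, the homeobox cofactor of HOXA proteins, split the fusion lines. It was at 11.86 in SHI-1, 11.38 in MV4-11, 11.19 in MOLM-13 and 10.79 in NOMO-1, but at 5.25 in ML-2 and 4.47 in THP-1, against 4.22 to 11.48 in the other units with a median of 6.97. MEIS1 was thus near the top of the other units' range in 4 fusion lines and near its bottom in the other 2. The difference was 1.53 ± 1.28 with an adjusted p of 0.602, and on arrays with GAPDH ratios of 2 or less and above 2 it was 4.22 and 0.38.

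PBX3, the third partner of this complex, was at 13.05 in SHI-1, 12.73 in MOLM-13, 12.61 in THP-1, 12.13 in MV4-11, 10.32 in NOMO-1 and 9.87 in ML-2. The other units ran to 12.86 in FKH-1 but were otherwise at 10.51 or lower, with a median of 9.16. The difference of 2.62 ± 0.75 had an unadjusted p of 0.00216 and an adjusted p of 0.181, so it did not pass. MEF2C, a transcription factor known as a target in mouse KMT2A leukaemia and named after its values were seen, had levels of 9.90 to 12.46 in the fusion lines, against 4.53 to 12.68 in the other units (difference 1.76 ± 1.14; adjusted p = 0.501).

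Among 18 other tested genes known as targets of KMT2A fusions, 14 had a positive difference and the median was 0.93, from -1.18 for ARHGAP25 to 3.92 for LAMP5, beside 0.07 for all tested genes. None passed the test, and 5 were higher and 2 lower at an unadjusted p under 0.05, beside 8.23% and 4.86% of all tested genes. CSPG4 (NG2), a surface proteoglycan used to recognise KMT2A-rearranged leukaemia, was at 10.50 in MV4-11, 8.50 in MOLM-13, 7.62 in THP-1, 7.38 in ML-2, 6.63 in NOMO-1 and 4.86 in SHI-1. The other units had a lowest level of 4.26, a median of 4.50 and a highest of 6.66. On this CSPG4 probe set, 214297_at, 4 fusion lines lay above every other unit, NOMO-1 lay just under the highest of them and SHI-1 lay among them. The difference of 2.60 ± 0.58 had an adjusted p of 0.0874. The dimmer CSPG4 probe set, 204736_s_at, differed by 2.28 ± 0.41 with an unadjusted limma p of 1.52e-05. There NOMO-1 at 5.82 lay above the highest other array, HL-60 at 4.82, and SHI-1 at 4.38 did not. CPEB2, a regulator of mRNA polyadenylation, averaged 11.01 ± 1.33 in the fusion lines and 8.22 ± 1.55 in the other units, a difference of 2.78 ± 0.68 with an adjusted p of 0.12.

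BEX1 had the largest difference of the called genes. It belongs to the brain-expressed X-linked family of small adaptor proteins, on chromosome X. Its level was 14.89 in ML-2, 14.82 in SHI-1, 14.51 in NOMO-1, 14.45 in MOLM-13, 13.82 in MV4-11 and 13.30 in THP-1. Among the other arrays it was 14.26 in OCI-AML3, 12.31 in HL-60, 9.98 in PL-21 and 5.48 to 7.64 in the rest, PLB-985 at 7.09 included. All fusion lines were high, while 2 of 15 other arrays were above 12, and the related HL-60 and PLB-985 differed. The difference was 6.57 ± 0.90 (adjusted limma p = 0.0028), 95.1-fold on this scale. The family did not move as one: BEX2 averaged 5.36 and 5.86, BEX4 6.20 and 7.31, and BEX3 9.59 and 9.68 in the fusion lines and other units, with adjusted p of 0.753, 0.681 and 0.988. BEX3 was at 4.44 in MOLM-13 and 4.98 in ML-2 and at 10.28 to 13.88 in the other fusion lines. These 3 genes were named after their values were seen.

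TRPM4, a calcium-activated cation channel of the cell membrane, had the smallest p of all tested genes. It was at 10.65 in MV4-11, 10.50 in MOLM-13, 9.22 in SHI-1, 8.90 in THP-1, 8.81 in NOMO-1 and 7.90 in ML-2, against a lowest level of 4.29, a median of 4.79 and a highest of 8.33 in the other units. GDM-1 alone, at 8.33, reached the fusion lines, and the next unit, SKM-1, was at 6.38. The difference was 4.23 ± 0.53 (adjusted limma p = 0.00123). Most other units lay near the bottom of the scale, so its size moves with the pseudocount, and with a pseudocount of 1 the TRPM4 difference was 5.43.

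The promoter windows of BEX1 and TRPM4 are shown because these genes had the largest differences and the smallest p. Each runs from 250 bases before the annotated start to 50 after it, from RefSeq, build GRCh38.p14, with CG dinucleotides, the sites of DNA methylation, in capitals. BEX1 is at chrX:103064122-103064421 on the minus strand, and TRPM4 at chr19:49157542-49157841 on the plus strand.
BEX1: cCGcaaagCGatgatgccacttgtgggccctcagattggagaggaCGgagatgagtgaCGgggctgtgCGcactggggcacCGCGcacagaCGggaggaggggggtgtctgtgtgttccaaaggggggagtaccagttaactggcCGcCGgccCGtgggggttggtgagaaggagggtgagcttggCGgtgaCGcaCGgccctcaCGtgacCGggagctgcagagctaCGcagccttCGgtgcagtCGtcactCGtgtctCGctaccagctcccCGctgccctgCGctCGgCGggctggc
TRPM4: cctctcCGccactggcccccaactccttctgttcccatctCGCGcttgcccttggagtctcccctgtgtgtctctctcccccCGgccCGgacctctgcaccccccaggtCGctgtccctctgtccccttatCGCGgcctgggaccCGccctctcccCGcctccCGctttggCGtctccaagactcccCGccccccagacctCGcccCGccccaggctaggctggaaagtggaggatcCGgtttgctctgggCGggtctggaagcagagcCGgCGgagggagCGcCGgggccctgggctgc
They hold 25 and 21 CG dinucleotides. Of the 16 higher genes, 12 had such a window, with a median of 23 CG and a range of 4 to 44, beside a median of 25 with quartiles of 15 and 34 over 11381 windows of tested genes. The letters TGATTNAT, of the kind bound by paired homeobox proteins, occurred on either strand in 1 of the 12 windows and in 1.48% of all. TTGCNNAA, of the kind bound by C/EBP factors, occurred in 2 of the 12 and in 7.28% of all.

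GIPR, the receptor for the incretin hormone GIP, was at 10.00 in NOMO-1, 9.49 in SHI-1, 9.38 in MOLM-13, 9.37 in MV4-11, 7.04 in ML-2 and 5.96 in THP-1, and the other units lay between 4.74 and 5.97 with a median of 5.35. Only THP-1 overlapped them. The difference was 3.17 ± 0.45 (adjusted limma p = 0.003), and another, dimmer probe set differed by 0.59 with an unadjusted p of 0.0747. The 4 fusion lines with high GIPR were the 4 with high MEIS1, and ML-2 and THP-1 were low in both. OCI-AML3 and FKH-1, with MEIS1 at 8.83 and 11.39, had GIPR at 5.40 and 5.97. GDM-1 and HNT-34, with MEIS1 at 11.48 and 11.41, had GIPR at 5.41 and 5.42. KG-1 and ME-1, with MEIS1 at 10.62 and 9.04, had GIPR at 4.97 and 4.74.

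MIR9-3HG, the host RNA of a microRNA-9 locus, was one of the 3 called genes in which the groups did not overlap. It was at 10.87 in NOMO-1, 9.36 in ML-2, 8.75 in MOLM-13, 8.59 in THP-1, 8.29 in MV4-11 and 8.08 in SHI-1, against 4.98 to 7.87 in the other units with a median of 6.33. The difference was 2.75 ± 0.46 (adjusted limma p = 0.0193), and its other probe set differed by 2.06. The gene on chromosome 15 holds the MIR9-3 hairpin, and its promoter window and the mature microRNAs are shown because microRNA-9 is known to be raised in KMT2A-rearranged leukaemia. The window is chr15:89361329-89361628 on the plus strand of GRCh38.p14, with CG in capitals, and the seeds, bases 2 to 8 of each microRNA, are in capitals.
MIR9-3HG: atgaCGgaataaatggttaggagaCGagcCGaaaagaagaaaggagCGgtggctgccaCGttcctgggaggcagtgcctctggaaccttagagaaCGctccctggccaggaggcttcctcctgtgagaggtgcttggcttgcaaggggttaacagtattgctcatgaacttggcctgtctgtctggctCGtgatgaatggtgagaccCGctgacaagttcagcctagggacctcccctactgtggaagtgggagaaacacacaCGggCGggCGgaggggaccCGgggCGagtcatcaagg
hsa-miR-9-5p: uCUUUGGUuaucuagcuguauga
hsa-miR-9-3p: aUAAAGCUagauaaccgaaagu
The window holds 13 CG dinucleotides. The same hsa-miR-9-5p is made from 3 loci in the RefSeq table, and no other mature name there shares its seed. The microRNA itself was not measured on this array.

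COL9A3, a chain of cartilage collagen IX, also did not overlap between the groups. It was at 9.11 in MOLM-13, 8.84 in SHI-1, 8.78 in ML-2, 8.47 in NOMO-1, 8.46 in THP-1 and 8.02 in MV4-11, against 4.71 to 7.41 in the other units with a median of 6.48. The difference was 2.50 ± 0.44 (adjusted limma p = 0.0228), and the fusion lines spread by an SD of 0.38 against 1.04. COL9A2, another chain of the same collagen and named after its values were seen, averaged 10.66 ± 1.81 in the fusion lines and 8.13 ± 0.87 in the other units, with an adjusted p of 0.0874.

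MBNL1-AS1 and MBNL1 both passed. MBNL1 encodes muscleblind, a splicing regulator known as a target of KMT2A fusions, and MBNL1-AS1 is annotated as its antisense RNA. MBNL1-AS1 was at 8.33 to 9.77 in the fusion lines with a median of 8.91, against 6.32 to 8.06 with a median of 7.47 in the other units, with no overlap. Its difference was 1.77 ± 0.32 (adjusted limma p = 0.0282), and its other probe set differed by 2.25. MBNL1, the smallest of the 16 differences and named after its values were seen, was at 13.38 to 14.13 in the fusion lines and at 12.30 to 13.41 in the other units, PL-21 alone reaching the fusion lines. The MBNL1 difference was 0.84 ± 0.17 (adjusted p = 0.0482). Its other probe sets ranged from -0.34 for 1555594_a_at to 1.15 for 201152_s_at, so they did not all show it. The MBNL1 window is printed as that of a known fusion target, at chr3:152268679-152268978 on the plus strand of GRCh38.p14, with its 31 CG dinucleotides in capitals.
MBNL1: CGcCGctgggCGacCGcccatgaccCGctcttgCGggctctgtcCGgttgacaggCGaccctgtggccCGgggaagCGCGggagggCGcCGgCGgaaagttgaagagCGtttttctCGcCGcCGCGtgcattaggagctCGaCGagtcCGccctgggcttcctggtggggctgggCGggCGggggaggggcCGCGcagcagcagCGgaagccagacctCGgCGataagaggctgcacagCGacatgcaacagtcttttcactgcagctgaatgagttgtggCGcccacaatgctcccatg

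Over all tested genes, with related lines averaged, the groups did not overlap in 5 genes higher in the fusion lines (0.0352%) and in 1 lower gene (0.00704%), together 0.0422%. Beside MIR9-3HG, COL9A3 and MBNL1-AS1 these were C22orf46P, AFG1L and, lower, PDIK1L, whose adjusted p were 0.0616, 0.292 and 0.181. The last 3 were named after their values were seen. On single arrays C22orf46P and PDIK1L did overlap. HL-60 was at 8.64 in C22orf46P, above the lowest fusion line at 8.26. KG-1 was at 9.28 in PDIK1L, below the highest fusion line at 9.37.

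The remaining called genes each had at least 1 fusion line inside the range of the other units. JMJD1C-AS1, annotated as antisense to the JMJD1C histone demethylase, was at 10.04 in NOMO-1, 9.93 in MOLM-13, 9.92 in THP-1, 9.27 in MV4-11, 7.94 in SHI-1 and 7.13 in ML-2, against 5.75 to 7.53 in the other units. ML-2 alone overlapped them, and the difference was 2.56 ± 0.39 (adjusted limma p = 0.00724). JMJD1C itself, named after its values were seen, averaged 10.84 and 10.54 (adjusted p = 0.727).

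VAT1L, a relative of the vesicle amine transport protein, was at 12.02 in ML-2, 11.11 in NOMO-1, 10.37 in MOLM-13, 9.55 in THP-1, 9.19 in MV4-11 and 7.12 in SHI-1, against a median of 6.24 and a highest level of 8.81, in OCI-AML3. SHI-1 alone lay inside the range of the other units, and the difference was 3.75 ± 0.64 (adjusted limma p = 0.0193). SNX24, a sorting nexin, was at 7.16 in SHI-1 and 8.39 to 9.37 in the other 5 lines, against 4.36 to 7.55, and differed by 2.55 ± 0.45. RUBCNL, a regulator of autophagosome maturation, ranged from 6.48 in MV4-11 to 12.72 in THP-1, against 4.62 to 8.21, and differed by 3.72 ± 0.68. HMX2, a homeobox gene of the inner ear and brain, was at 12.26 in MV4-11, 11.43 in SHI-1 and 10.51 in MOLM-13 but at 5.99 in ML-2, against 5.16 to 6.65, and differed by 3.40 ± 0.65. MV4-11 in RUBCNL and ML-2 in HMX2 were the lines that lay among the other units.

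SPIB, an ETS factor of B cells and plasmacytoid dendritic cells, was at 6.49 in SHI-1 and at 7.71 to 8.92 in the other 5 lines, against 4.39 to 7.39 in the other units, and differed by 2.02 ± 0.40. WHAMMP2, a transcribed pseudogene of the WHAMM actin nucleation factor, was at 9.01 in SHI-1 and at 9.49 to 11.37 in the others, against 7.79 to 9.40, and differed by 1.76 ± 0.33. Near-identical copies can share its probes, so the source of that signal is uncertain. The adjusted limma p of SNX24, RUBCNL, HMX2, SPIB and WHAMMP2 were 0.0257, 0.0311, 0.0349, 0.0482 and 0.0345.

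Of the 16 higher genes, 9 had further probe sets, 26 in all. Of these 25 had a positive difference and 20 an unadjusted p under 0.05 in that direction. The lowest fusion line changed from gene to gene: it was SHI-1 in 7 genes (VAT1L, CPM, MIR9-3HG, SNX24, SPIB, WHAMMP2 and MBNL1), ML-2 in 5 (TRPM4, JMJD1C-AS1, HMX2, MS4A6A and MBNL1-AS1), THP-1 in BEX1 and GIPR, and MV4-11 in RUBCNL and COL9A3. Of the other units, OCI-AML3 was the highest in 6 of the 16 genes, against 8.42% of all tested genes.

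The 16 genes were also counted on subsets of the arrays. All 17 called genes kept their direction on the arrays with GAPDH ratios of 2 or less (2 fusion lines against 11 other units) and on those above 2 (4 against 3). The median difference of the 16 higher genes was 2.96 on all arrays, 2.17 at low ratios, 2.84 at high ratios and 2.70 without NOMO-1. Fewer passed the test in those smaller sets: without NOMO-1 5 genes were higher (0.0363% of those tested) and 0 lower, with 1184 genes at an unadjusted p under 0.05. Of the 17, those that passed without NOMO-1 were TRPM4, BEX1, GIPR and JMJD1C-AS1. At low ratios 0 genes passed in either direction by limma, with 476 at an unadjusted p under 0.05, and at high ratios 6 were higher and 1 lower, none of them among the 17. The same 4 genes, TRPM4, BEX1, GIPR and JMJD1C-AS1, passed in all 19 comparisons that left out 1 unit. With EOL-1 added to the fusion lines, JMJD1C-AS1 was the 1 called gene that did not pass. It was at 5.42 in EOL-1, and its difference was then 2.04 (adjusted limma p = 0.139). Leaving out 1 unit also moved the count of higher genes to 7 without MOLM-13 or THP-1, 8 without KASUMI-1, 9 without KG-1/KG-1A or ME-1, 10 without HNT-34 or NB-4 and 27 without SHI-1. Without OCI-AML3, which was the highest other unit in BEX1, VAT1L, RUBCNL, CPM, SNX24 and MBNL1-AS1, 39 genes were higher and 6 lower. Without both OCI-AML3 and OCI-AML5, 43 were higher (0.305%) and 6 lower (0.0426%), all 17 called genes among them. With the log2 GAPDH ratio as a covariate 9 were higher (0.0633%) and 0 lower. Of the 17 called genes 8 passed with it, and 9 did not. Those that passed were TRPM4, BEX1, GIPR, JMJD1C-AS1, MIR9-3HG, SNX24, MS4A6A and HMX2.

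**Figure D3:**
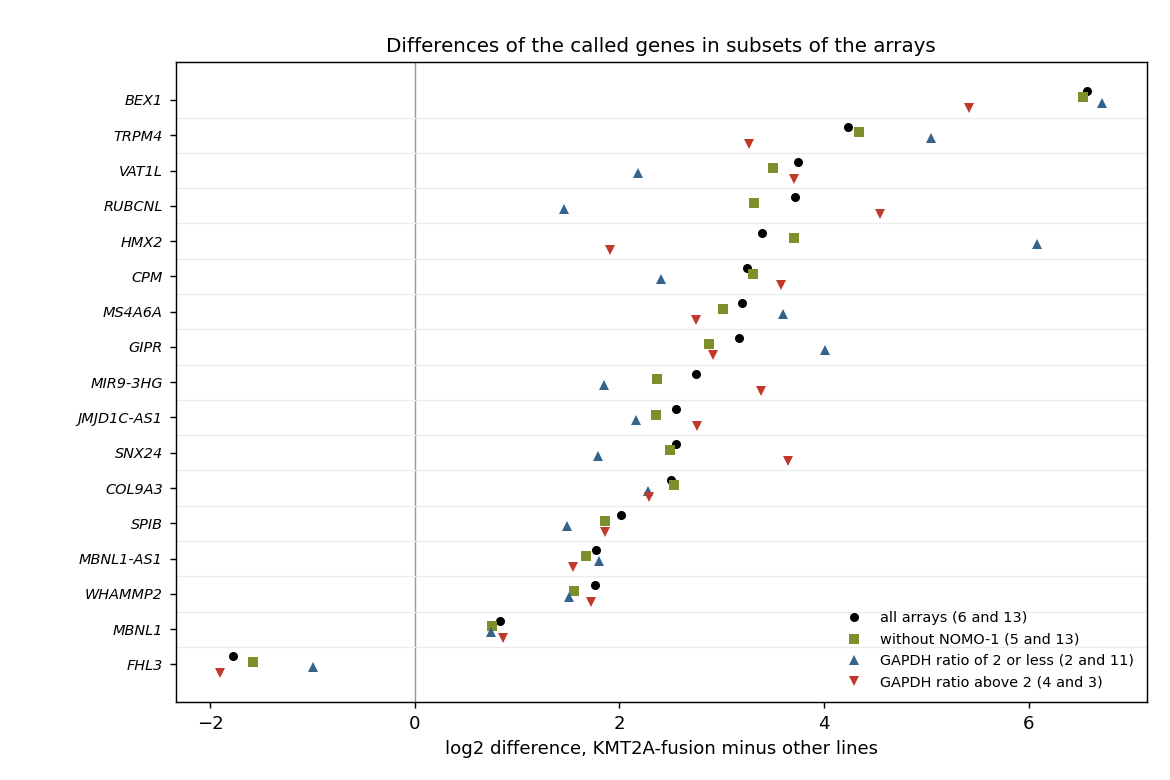
Log2 difference, KMT2A-fusion minus other lines, of the 17 called genes on all arrays, without NOMO-1 and on the arrays with a GAPDH 3′/5′ ratio of 2 or less or above 2; legend numbers give fusion lines and other units. Every point lies on the side of 0 where its gene lies on all arrays, and HMX2 spreads furthest, with 6.08 at low and 1.91 at high ratios.

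Of 22 tested members of the monocyte and macrophage list, 1 passed the test. At an unadjusted p under 0.05, 5 were higher and 0 lower in the fusion lines, beside 8.23% and 4.86% of all tested genes. A positive difference was found in 21 members, and the median was 1.17, beside 0.07 for all tested genes, of which 55.8% were positive. The 1 member that passed was MS4A6A, a membrane protein of monocytes and microglia, at 13.04 in MV4-11, 11.96 in THP-1, 11.82 in NOMO-1, 11.30 in MOLM-13, 9.58 in SHI-1 and 7.80 in ML-2, against 6.16 to 9.74 in the other units with a median of 7.61. In it 4 lines lay above all other units, and the difference was 3.20 ± 0.60 (adjusted limma p = 0.0345). Its probe set can bind more than 1 transcript by design, and 6 other probe sets of the gene differed by 1.28 to 4.08. CD36, a scavenger receptor, averaged 8.47 ± 1.74 and 5.80 ± 1.70 (adjusted p = 0.198), with OCI-AML3 highest of all at 10.96.

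In bulk RNA, more maturing cells in a culture and more of these RNAs per cell cannot be told apart. The list median was also set in part by NOMO-1, which had the highest mean list level of all lines, 10.61, against 7.88 to 9.59 in the other fusion lines and 6.12 to 9.61 in the other units. Without NOMO-1, 15 of 21 members were positive and the median was 0.59. On arrays with low and high GAPDH ratios the median was 0.55 and 1.74. The summed signal of the list ran from 36991 to 145576 in the fusion lines and from 2663 to 77664 in the other units. The part of array quality in this difference was not tested.

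CPM, carboxypeptidase M, a membrane enzyme that appears as monocytes become macrophages, passed outside that list. It was at 11.69 in THP-1, 10.87 in MOLM-13, 10.00 in MV4-11, 9.62 in NOMO-1, 8.95 in ML-2 and 8.31 in SHI-1, against 4.52 to 9.05 with a median of 6.08 in the other units. OCI-AML3 at 9.05 and OCI-AML5 at 8.80, both grown with GM-CSF or SCF, were the units that reached the fusion lines, and the difference was 3.25 ± 0.61 (adjusted limma p = 0.0345). Other members of the MS4A family, named after their values were seen, lay the same way without passing: MS4A7 averaged 10.91 and 7.80 (adjusted p = 0.0618), MS4A14 9.57 and 6.63 (0.0616) and MS4A4A 7.78 and 6.09 (0.17) in the fusion lines and other units. OCI-AML3, at 11.46 in MS4A7 and 10.21 in MS4A14, was the one unit above the lowest fusion line in both.

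Of 26 tested genes of stem and progenitor cells, 23 had a negative difference and the median was -1.05; 0 passed, and 4 were lower and 0 higher at an unadjusted p under 0.05, beside 4.86% and 8.23% of all tested genes. CD34, the surface marker of progenitors, was at 4.73 to 6.89 in the fusion lines, against 5.40 to 13.44 in the other units with a median of 6.48. The other units held both CD34-high and CD34-low lines, the fusion lines were all low, and the difference of -2.84 ± 1.21 had an adjusted p of 0.333. GATA2, a transcription factor of stem cells, averaged 9.40 ± 0.68 in the fusion lines and 10.66 ± 1.30 in the other units (adjusted p = 0.329). The mean level of the list lay between 6.37 and 7.99 in the fusion lines and between 6.04 and 10.80 in the other units. FKH-1, GDM-1, HNT-34, KG-1/KG-1A and ME-1 made up the upper part, with HNT-34 at 10.80, and the other 8 units lay at 6.04 to 7.69.

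**Figure D4:**
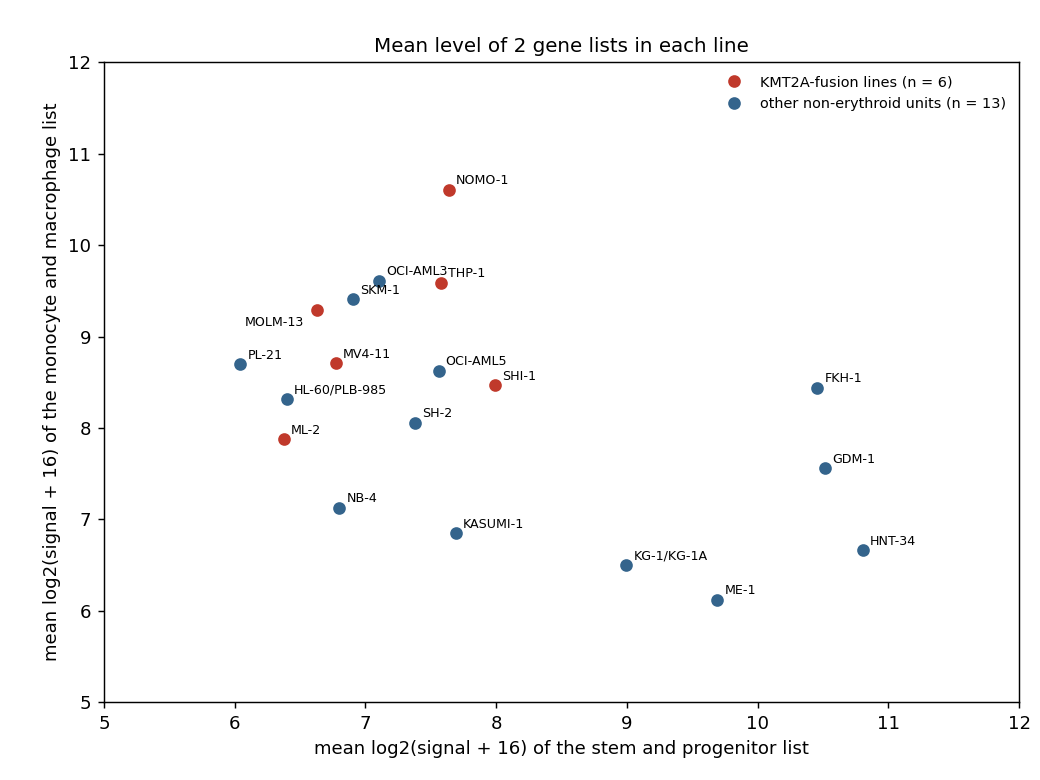
Mean log2(signal + 16) of the tested stem and progenitor genes (horizontal) and of the monocyte and macrophage genes (vertical), with 1 point per KMT2A-fusion line (red, n = 6) and other unit (blue, n = 13). The fusion lines lie at 6.37 to 7.99 on the horizontal axis, where 7 other units lie too, and NOMO-1 is highest on the vertical axis at 10.61.

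Granule genes of neutrophil precursors were present in all fusion lines. ELANE, neutrophil elastase, was at 15.43 in ML-2, 15.27 in MOLM-13, 15.04 in SHI-1, 14.93 in THP-1, 13.45 in MV4-11 and 11.83 in NOMO-1, against 4.45 to 14.97 in the other units with a median of 10.68. AZU1, azurocidin, was at 9.97 in NOMO-1 and 13.82 to 14.90 in the other fusion lines, against 4.66 to 14.23. The other units spread from near the bottom of the scale to the levels of the fusion lines, and the differences of 4.10 ± 1.62 and 2.79 ± 1.26 did not pass (adjusted limma p = 0.304 and 0.353). Of 17 tested granule genes 14 were positive, with a median of 0.61 and 0 passing. At an unadjusted limma p under 0.05, 2 were higher and 0 lower, beside 8.23% and 4.86% of all tested genes.

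In the following lists 0 members passed, but only 0.12% of all tested genes did, so 0 in a short list does not show that the groups were alike. At an unadjusted limma p under 0.05, 1 gene was higher in each of the cell cycle, BCL2 family, interferon-induced and B cell lists. The stromal and epithelial list held 2 higher genes and the MAPK feedback list 2 lower ones, and the rest held 0. Over all tested genes 8.23% were higher and 4.86% lower. Among 23 cell cycle genes 13 were positive with a median of 0.06, and MKI67 averaged 11.54 and 10.86 (adjusted p = 0.374), and E2F1 9.64 and 8.88 (0.426). The 9 tested HOXB genes had a median of 0.01, with HOXB2 at 10.31 in SHI-1 and 4.64 to 6.87 in the other fusion lines, against 5.13 to 12.49. HOXB1 averaged 6.50 and 5.68 (adjusted p = 0.441). The 11 MHC class II genes had a median of -0.02, HLA-DRA averaged 8.40 and 9.91 (0.563), and HLA-DOB averaged 8.20 and 7.03 (0.385). Among 13 BCL2 family genes the median was -0.15. BIK, a BH3-only promoter of cell death, was at 9.61 to 12.17 in the fusion lines and 4.64 to 11.91 in the other units (difference 2.63 ± 0.95; 0.28), and PMAIP1 averaged 10.42 and 11.36 (0.4).

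The MAPK feedback genes, which damp RAS signalling, had a median of -0.60 over 15 tested genes, 10 of them negative, but 0.14 on arrays of low GAPDH ratio. SPRY1 averaged 7.69 and 8.75 (adjusted limma p = 0.346) and SPRED1 6.20 and 7.86 (0.364) in the fusion lines and other units. Cytokine receptors and PIM kinases had a median of -0.04 over 16 genes. KIT, the receptor for SCF, averaged 7.71 and 10.05 (0.454), and IL2RG, the common gamma chain, was at 11.60 in SHI-1, well above the other fusion lines, of which ML-2 was lowest at 6.66, against 6.75 to 12.05. FLT3, named after its values were seen, was at 13.17 in MOLM-13 and 13.06 in MV4-11, the lines with the internal tandem duplication, and at 5.85 to 9.81 in the other fusion lines, against 6.17 to 12.16. Interferon-induced genes had a median of -0.22 over 22 genes, and 0.54 at low GAPDH ratios. MX1 averaged 7.16 and 5.99 (0.352), and IFITM3 was at 5.72 in NOMO-1 and 9.86 to 12.69 in the other fusion lines, against 9.44 to 13.73.

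Markers of other lineages were compared to see whether the lines differed in them. Over 9 erythroid genes the median was 0.14, with TAL1 at 5.91 to 8.21 in the fusion lines and 5.55 to 12.94 in the other units, and over 10 megakaryocyte genes it was -0.29, with FLI1 averaging 10.94 and 11.68. Over 9 B cell genes the median was -0.16, over 7 T and NK cell genes -0.02 and over 6 stromal and epithelial genes 0.32. BLNK, a B cell adaptor, differed by 1.66 ± 0.56 (SE; adjusted limma p = 0.246). PAX5 averaged 6.06 and 6.65 (0.719), CD3D 6.76 and 8.36 (0.584), CD3E 6.30 and 6.83 (0.56) and PECAM1 12.36 and 10.81 (0.347). ANK1, ITGB3 and COL1A2 were highest in NOMO-1 among the fusion lines, at 9.26, 7.93 and 9.32, and the other fusion lines lay at 7.03 to 7.53, 6.21 to 6.80 and 6.97 to 7.31.

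**Figure D5:**
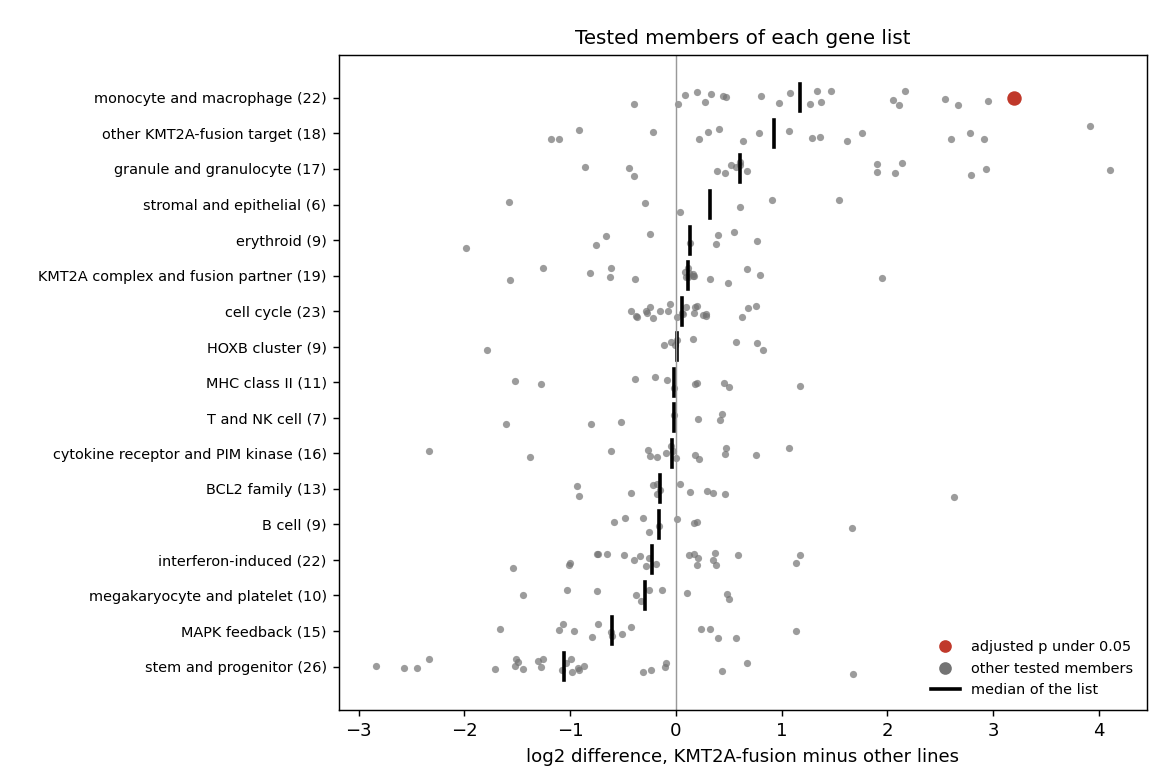
Log2 difference, KMT2A-fusion minus other lines, of every tested member of each gene list with at least 5 tested genes; the number of genes is in parentheses, the black line is the median and red points passed an adjusted p of 0.05. Of the lists shown, the monocyte and macrophage list has the highest median, 1.17, and the stem and progenitor list the lowest, -1.05, and MS4A6A is the one red point.

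FHL3, a LIM-domain cofactor of muscle and other cells, was the 1 gene lower in the fusion lines. It was at 6.82 in NOMO-1, 7.35 in MV4-11, 7.36 in MOLM-13, 7.47 in ML-2, 7.67 in THP-1 and 9.83 in SHI-1, against 8.58 to 10.11 in the other units with a median of 9.57. In it 5 fusion lines lay below every other unit and SHI-1 lay among them. The difference was -1.77 ± 0.34, a 3.41-fold lower mean (adjusted limma p = 0.0421), and the gene passed in 4 of 19 comparisons that left out 1 unit.

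The next 9 genes by p in that direction did not pass. HHEX, a homeobox factor of early blood and endothelium, averaged 9.36 ± 1.19 in the fusion lines and 11.47 ± 0.87 in the other units (adjusted limma p = 0.0649). CRYZ, a quinone oxidoreductase, averaged 9.18 ± 0.28 and 10.57 ± 0.66 (0.0616), with GDM-1 at 9.15 the only unit inside the range of the fusion lines. HL-60 alone, before averaging with PLB-985, was at 9.46 and also inside that range. SIAH1, an E3 ubiquitin ligase, averaged 10.45 and 11.50 (0.0616), and RABGGTB, a subunit of the enzyme that prenylates RAB proteins, 10.08 and 11.20 (0.0874). MCC averaged 5.89 and 7.02 (0.0908) and ZNF639 10.71 and 11.69 (0.115).

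Of these 9 genes, 3 were zinc finger genes from 1 stretch of chromosome 19. ZNF382 was at 4.27 to 6.25 in the fusion lines, against 4.56 in PL-21 and 6.63 to 8.92 in the rest (difference -2.21 ± 0.47; adjusted limma p = 0.0618). ZFP30 was at 4.24 in MV4-11, 4.31 in MOLM-13, 5.13 in NOMO-1 and 5.47 in SHI-1 but at 8.38 in ML-2 and 8.10 in THP-1, against 5.62 in PL-21 and 8.33 to 9.14 in the rest (-2.50 ± 0.58; 0.112). ZNF571 was at 4.25 in SHI-1, 5.42 in NOMO-1 and 5.96 to 7.12 in the other lines, against 6.36 to 8.24 (-1.62 ± 0.36; 0.0874). PL-21 was low with the fusion lines in ZNF382 and ZFP30, and different fusion lines were lowest in each gene.

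The stretch from ZNF382 to ZNF573, picked after these values were seen, holds 16 tested zinc finger genes. At an unadjusted limma p under 0.05, 5 were lower and 0 higher, where 4.86% and 8.23% of all tested genes were. The 5 include ZNF382, ZNF571 and ZFP30, for which the stretch was picked, so the count is no separate support for them. ZNF607 (-1.12 ± 0.35) and ZNF567 (-1.16) were the others, and the median of the 16 was -0.11. Among all 397 tested genes named ZNF or ZFP, these 5 included, 19 were lower and 38 higher, with a median of 0.04. The neighbours ZNF569, ZNF570 and ZNF420 had differences of 0.02, 0.12 and 0.22.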

How the data were processed

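The authors deposited 1 table of signal intensity for 32 AML cell lines, 1 Affymetrix array each and 54675 probe sets; per the submitters' processing notes it came from Affymetrix Expression Console. The algorithm and scaling are not given in the sources used here. In the deposited intensity table the 2% trimmed mean of every array compared was 500.05 to 500.07, so the arrays had been scaled to 1 level and were not rescaled. A shift of RNA content per cell would not be seen on such arrays.

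Intensities were converted to log2(signal + 16), which understates the change of dim genes. Gene names came from GEO's platform annotation. Of the probe sets, 41091 had 1 gene symbol, 1801 had several and were left out, and 11721 were not named. Each of 19775 genes was read through the probe set with the highest mean over the 32 arrays, and was tested if it exceeded the median level of all probe sets, 6.73, in at least 3 of 19 units, which left 14212. A gene high only in the 6 fusion lines could pass that filter through them. Among the called genes GIPR and HMX2 did so, each above that level in 5 fusion lines and 0 other units. TRPM4 and SNX24, above it in 6 fusion lines and in 1 and 2 other units, also needed fusion lines to pass the filter. Groups were compared with limma 3.58.1 in R 4.3.3 (lmFit, and eBayes with a mean-variance trend), with Benjamini-Hochberg adjustment over all tested genes; no sample was dropped or imputed. On simulated data with the same design and 14212 genes, 78% of genes changed by 2 and 96% of those changed by 4 on the log2 scale were called, with 6 false calls. Those data had independent normal noise and no differences in array quality, so these shares need not hold for the real arrays. Tables and figures were made with Python 3.11.15, pandas 2.3.3 and matplotlib 3.10.9.

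The lines compared and the gene lists were chosen with earlier results of these data known. Named genes were up to 15 per direction with the largest differences among those called, filled to 10 by p where fewer passed, each list's called members and its 2 with the smallest p, all probe sets of KMT2A, MLLT3, AFDN and AFF1, and MEIS1, PBX3 and HOXA members. Alternatives changed the arrays used, a GAPDH covariate, the pseudocount, the filter, the scaling, the probe set choice and the variance model. Promoter and microRNA sequences are from RefSeq, GRCh38.p14.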

Additional observations from a re-analysis of the deposited data

Results flagged for a closer look

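In each of 85 quantities, the fusion line furthest from the rest was checked by its gap to the next line as a share of the range of the 6 lines (limit 0.625), and 11 passed that limit, where chance passes about 1 in 20. Of these, 8 belonged to the NOMO-1 array: its median signal of 198.4 (78.5 to 100.6 on the other fusion arrays), its mean correlation of 0.731 with the other arrays (0.858 to 0.883), its share of probe sets under a signal of 16, 5.99% (18.5% or more on the others), and its log2 levels of AZU1 at 9.97 (13.82 to 14.90), ANK1 at 9.26 (7.03 to 7.53), ITGB3 at 7.93 (6.21 to 6.80), COL1A2 at 9.32 (6.97 to 7.31) and AFF1 at 10.91 (12.96 to 13.25). The array of ML-2 had a GAPDH 3′/5′ ratio of 5.97 (1.14 to 2.84 on the other fusion arrays). SHI-1 stood above the other fusion lines in FHL3 at 9.83 (6.82 to 7.67) and in IL2RG at 11.60 (6.66 in the lowest, ML-2).

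Lines in neither group also reached the levels of the fusion lines. Of the 16 genes higher in the fusion lines, OCI-AML2 exceeded all 13 other non-erythroid units in 10, among them TRPM4, GIPR, MIR9-3HG and CPM. EOL-1, which carries a partial tandem duplication of KMT2A, exceeded them in 7, among them TRPM4, HMX2 and SPIB, and GF-D8 in 7, among them RUBCNL and COL9A3. The GF-D8 array stood further apart than that of NOMO-1, with a median signal of 243.3, a mean correlation of 0.652 with the other arrays, 3.54% of probe sets under a signal of 16 and a GAPDH ratio of 4.45, and the part of this in its 7 genes was not tested. F-36P, OCI-M1 and OCI-M2 did so in 3 genes each, MO7E in 2, and KMOE-2, MOLM-16 and SET2 in 1 each. None of these lines was tested against the others on its own, and EOL-1 was tested together with the fusion lines.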

How the results depend on the processing

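Against 16 higher genes and 1 lower gene, the counts were 5 and 0 without NOMO-1, 0 and 0 on arrays with a GAPDH ratio of 2 or less, 6 and 1 above 2, 9 and 0 with the log2 ratio as covariate, 43 and 6 without OCI-AML3 and OCI-AML5, 8 and 0 after quantile normalization, 8 and 1 after median centring, 24 and 3 with EOL-1 added, 13 and 0 with HL-60 and KG-1 alone, 15 and 0 with no filter, 13 and 2 with the most variable probe set and 18 and 3 with every probe set tested. Leaving out 1 unit at a time gave 5 to 39 higher genes (fewest without NOMO-1, most without OCI-AML3) and 0 to 7 lower genes (most without SHI-1, and 0 without MOLM-13, THP-1, MV4-11, NOMO-1 and 7 other units). The cause of these changes was not tested. With OCI-AML3 and OCI-AML5 left out, all 17 genes still passed. The pseudocounts of 1 and 64, the filter at 6 units and the fit without the variance trend left 11, 19, 14 and 16 higher genes. The GAPDH log2 ratio difference of 0.76 was 0.486 without ML-2 and up to 0.963 without MV4-11, with p under 0.05 at 0.951 without GDM-1 and 0.954 without NB-4.

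All called genes kept their direction in every alternative. Of the named genes that did not pass, the difference changed sign for KMT2A (0.55), IL2RG (0.11), IFITM3 (0.31) and BEX3 (2.11) at low GAPDH ratios and for HLA-DRA (1.20), E2F1 (-0.19), BEX3 (0.44) and, as a plain difference of means, HOXA2 (0.16) at high ratios. BEX3 also changed sign with the covariate (0.59) and without OCI-AML3 and OCI-AML5 (0.54). With 1 unit left out BEX3 ran from -0.95 to 0.94 and HOXA2 from -0.56 to 0.17. The median difference of all tested genes, 0.07, was -0.13 after median centring and 0.02 after quantile normalization. No paired analysis was possible because each line was measured once and no label pairs lines across the groups. Genes near the background of an array have compressed differences, and the 6 fusion lines include only 2 arrays with low GAPDH ratios.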
